A study of Mesocricetus auratus with 38 samples.

Results

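The Slc25a genes encode mitochondrial solute carriers, and they were followed here in the liver of Golden Syrian hamsters (Mesocricetus auratus) fed a high-fat diet and treated with combined metabolic activators (CMA). All rows whose symbol starts with Slc25a were taken, without the carnitine carrier Slc25a20, which gave 37 of the 14631 gene symbols in the tables. Hepatic RNA of male animals, 22 weeks of age by the labels, was sequenced in 38 libraries. The Chow diet group (9 libraries) received a normal diet, and the HFD group (10 libraries) received a high-fat diet that held cholesterol, with a placebo. The placebo, like CMA in the other groups, was given only in the last weeks of feeding. The HFD + MI_D1 (9 libraries) and HFD + MI_D2 (10 libraries) groups received the same high-fat diet with CMA, at Dose I and at the higher Dose II. CMA consisted of nicotinamide riboside, L-carnitine tartrate and N-acetyl-L-cysteine given by mouth, and betaine given in the drinking water. For the former, the study's methods describe diluted condensed milk that the animals licked, whereas its results name gavage. Each treated group had the diet and all components of CMA, so the effect of a single component cannot be told apart. The study asked what changes in the liver with the diet and with CMA, and the comparisons below ask it for these carriers.

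Metabolites cross the outer mitochondrial membrane through porins, but the inner membrane needs a carrier for almost every charged molecule. Most of these carriers belong to the SLC25 family, are encoded in the nucleus, are made in the cytosol and reach the inner membrane through the TIM22 import route. In liver they connect fatty acid synthesis (citrate export), gluconeogenesis and the malate-aspartate shuttle (malate, aspartate and glutamate), the urea cycle (ornithine and aspartate), ATP supply (phosphate, ADP and ATP) and the supply of cofactors and iron.

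Library totals ran from 4075609 to 10384523 estimated counts in the Chow diet group, 5201905 to 6498368 in the HFD group, 4669857 to 6403259 in the HFD + MI_D1 group and 4743241 to 8417322 in the HFD + MI_D2 group. A library is named below by letters for its group (C, Chow diet; H, HFD; DI, HFD + MI_D1; DII, HFD + MI_D2) and its label number. The lowest correlation of log2 CPM between libraries of the Chow diet group was 0.947, against 0.982 or more within each of the other groups. Which pair of libraries gave this value was not recorded. C105 was the control that the study left out, and tests were run over the other 37 libraries, with values over all 38 given where they differ. Hepatocyte markers were abundant (10 of 10 tested), and transcripts of the testis markers Tnp1, Tnp2 and Prm2 were at 0 in all libraries. Of the brown adipocyte list, Ucp1 and Adipoq were at 0 in all libraries, and Cidea was at no more than 0.207 CPM in any library. In bulk liver RNA, fewer cells of a type and less RNA per cell cannot be told apart.

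Slc25a47 dominated the transcripts of the 37 carriers. Symbols such as Slc25a5, Slc25a12, Slc25a23 and Slc25a39 were not in the tables, and Slc25a20 was not taken. The shares below are therefore not shares of the whole family. On the TPM scale, which is per transcript length and allows genes to be compared, Slc25a47 averaged 1132 TPM over the 37 libraries and 36.3% of the summed TPM of the carriers. Slc25a47 is expressed almost only in liver, and its substrate is not settled. Slc25a1, which exports citrate for fatty acid and sterol synthesis, followed with 14.7%, and Slc25a3, which brings in phosphate for ATP synthesis, with 10.2%. The malate and phosphate exchanger Slc25a10 held 5.46%, the glutamate carrier Slc25a22 held 5.08%, the aspartate-glutamate carrier Slc25a13 (citrin) held 4.95% and the oxoglutarate-malate carrier Slc25a11 held 4.14%. Slc25a47 was above Slc25a1 in 37 of 37 libraries and Slc25a3 was above Slc25a10 in 37 of 37, but Slc25a10 was above Slc25a22 in only 22 and Slc25a22 above Slc25a13 in 19, so the order of the last 3 of these was not settled within their spread. The most abundant 11 carriers held 90.2% of the summed TPM. The sum itself was 3106 ± 310 TPM (SD) in the Chow diet group, 3078 ± 371 in the HFD group, 2876 ± 496 in the HFD + MI_D1 group and 3169 ± 498 in the HFD + MI_D2 group, and these group means differed by less than the spread between libraries.

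**Figure D1:**
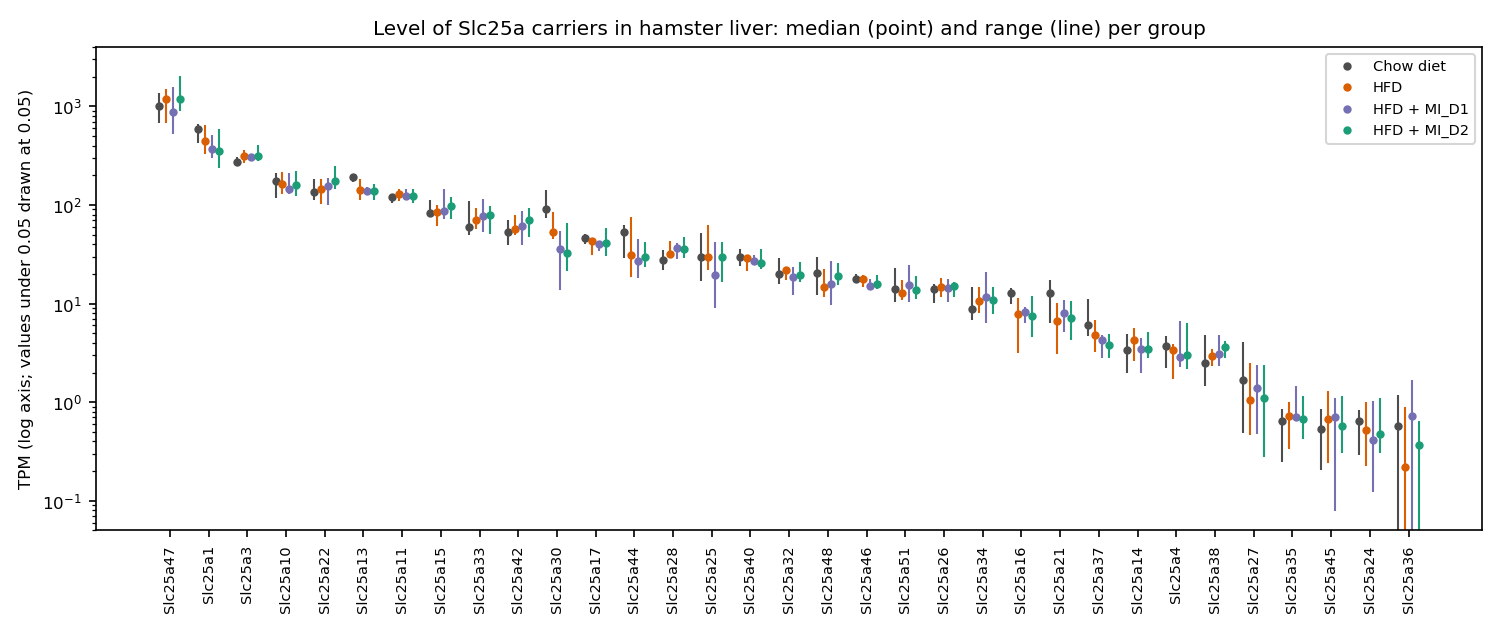
Level of each Slc25a carrier in TPM (log axis) in the Chow diet, HFD, HFD + MI_D1 and HFD + MI_D2 livers, as the median (point) and the range (line) over 37 libraries, without C105. Slc25a18, Slc25a31, Slc25a41 and Slc25a43, whose median over the libraries was 0, are not drawn; Slc25a47 stands above all others, and carriers such as Slc25a30 and Slc25a13 are highest in the Chow diet group.

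Of the 37 carriers, 30 passed the filter on low counts and were tested. The other 7 were Slc25a18, Slc25a27, Slc25a31, Slc25a36, Slc25a41, Slc25a43 and Slc25a45. Slc25a41 had 0 counts in all libraries, Slc25a31, an ADP/ATP carrier known from testis, had no group mean above 0.0377 CPM, and Slc25a18, a glutamate carrier, had a count in only 1 of the 37 libraries. Slc25a45 had group means of 1.05 to 1.35 CPM, Slc25a27 of 0.704 to 1.13 CPM and Slc25a36 of 0.184 to 0.589 CPM.

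Feeding the high-fat diet moved 10 of the 30 tested carriers, 3 upwards and 7 downwards (edgeR, adjusted p under 0.1). Those that fell were Slc25a21, Slc25a30, Slc25a16, Slc25a37, Slc25a44, Slc25a13 and Slc25a48, and those that rose were Slc25a14, Slc25a28 and Slc25a3. Over all 9099 tested genes 36.2% passed the same threshold, 18.1% in each direction, so the carriers as a family did not change more often than other genes. Their median log2 fold change was 0.02. The other 20 carriers lay between -0.27 and 0.23 on the log2 scale, with a lowest adjusted p of 0.179 and a median SE of 0.13. Over 38 libraries 6 carriers fell and 0 rose, with 15.6% of all genes passing (6.63% higher and 8.94% lower); 8 carriers had an unadjusted p under 0.05 in that fit.

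No carrier passed the threshold at Dose I against HFD (0 of 30), against 0.187% of all tested genes (0.154% higher and 0.033% lower). At an unadjusted p under 0.05 there were 4, which were Slc25a30, Slc25a51, Slc25a25 and Slc25a15, and DESeq2 called 1 carrier, Slc25a30, lower (adjusted p = 0.0909). At Dose II against HFD 2 carriers rose and 0 fell, while 5.63% of all genes passed (3.37% higher and 2.25% lower); these were Slc25a22 and Slc25a48. Here 7 carriers had an unadjusted p under 0.05. With limma on either TPM scale neither Slc25a22 nor Slc25a48 passed, and with RLE scaling or no filter only Slc25a22 did; 1 carrier, Slc25a30, was called lower by DESeq2 and by limma. Over 38 libraries neither Slc25a22 (adjusted p = 0.109) nor Slc25a48 (adjusted p = 0.142) passed, and 2.7% of all genes did. Between the doses 0 carriers passed, as did 0% of all 9099 genes, with 1 carrier at an unadjusted p under 0.05 and 0 by DESeq2 and limma.

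Against the Chow diet group, with the diet and CMA both different, 5 carriers were higher and 7 lower at Dose I (40.7% of all genes passed, 20.6% higher and 20.1% lower), and 7 were higher and 7 lower at Dose II (47.4%, 23.9% higher and 23.4% lower). Over 38 libraries 3 were higher at Dose I, against 10.4% of all genes, and 4 at Dose II, against 15.6%. These comparisons share the control libraries with the diet comparison, and their calls are not separate evidence for it. A test of any difference among the 4 groups found 13 of the 30 carriers, against 43.8% of all genes.

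**Figure D2:**
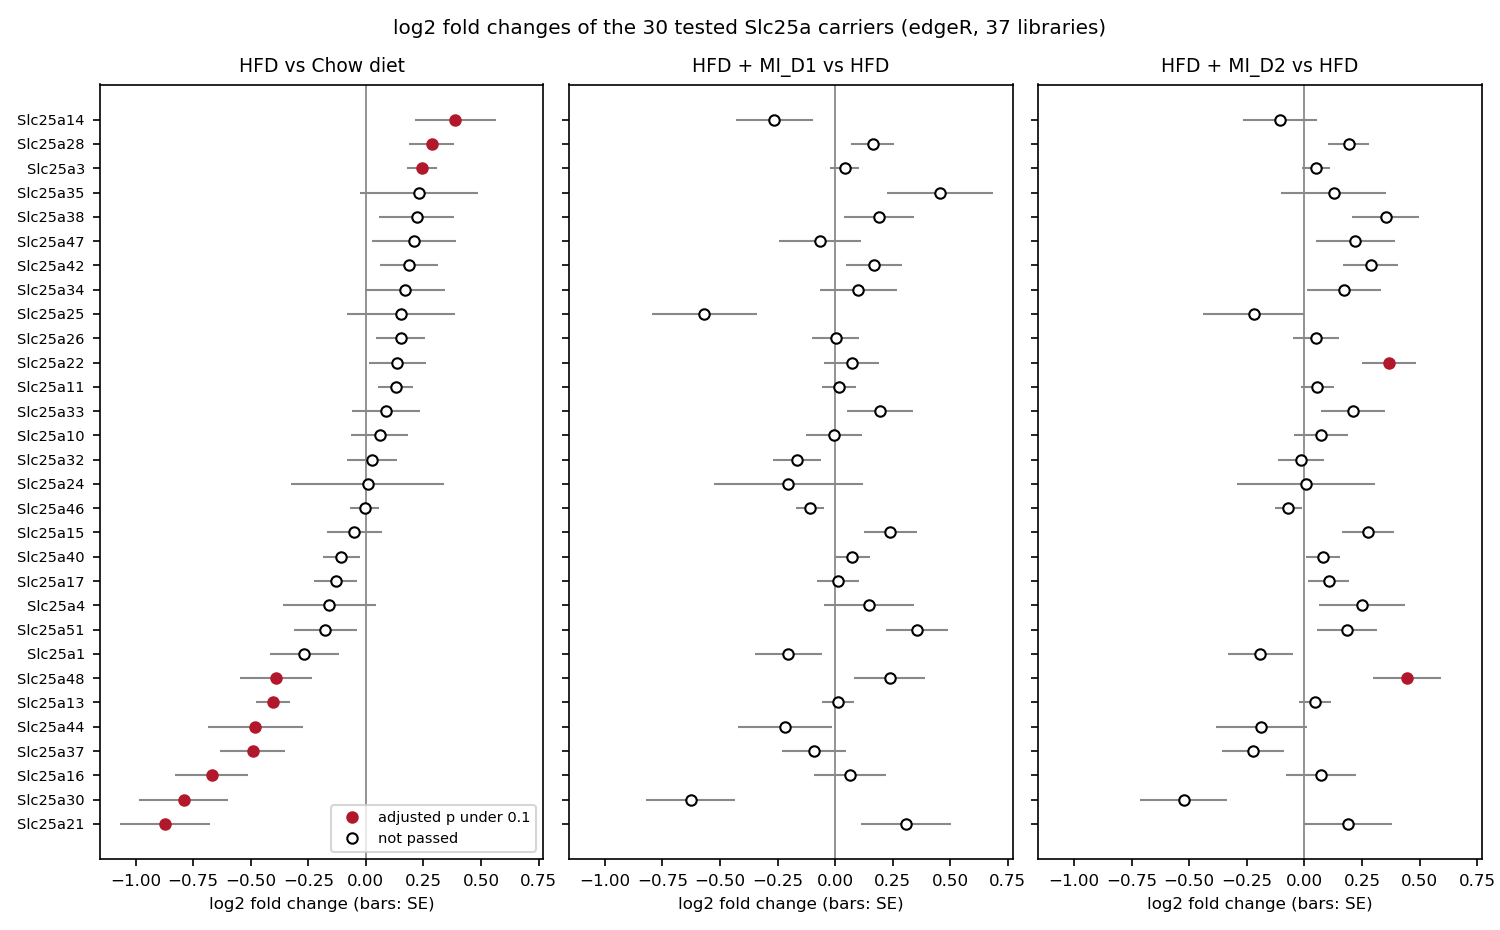
log2 fold change of the 30 tested Slc25a carriers (points, with SE as bars) in 3 comparisons, from edgeR over 37 libraries; filled points passed an adjusted p of 0.1. The genes are in the same order in each panel, by their HFD vs Chow diet value, and 10 points are filled for HFD vs Chow diet, 0 for HFD + MI_D1 vs HFD and 2 for HFD + MI_D2 vs HFD.

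Among the carriers of citrate, dicarboxylates and oxodicarboxylates (6 tested), only Slc25a21 passed in the HFD group. Slc25a21 carries oxoadipate, an intermediate of lysine and tryptophan breakdown, in exchange for oxoglutarate. Its normalized CPM was 3.35 to 9.27 (median 7.17) in the Chow diet group, 1.70 to 5.55 (median 3.62) in the HFD group, 3.04 to 6.31 (median 4.50) in the HFD + MI_D1 group and 2.38 to 5.79 (median 4.27) in the HFD + MI_D2 group. Of the 8 controls 5 were above every library of the other 3 groups, and C102, C103 and C104 overlapped with them. Slc25a21 fell, with a log2 fold change of -0.87 for HFD vs. Chow diet (SE 0.20, adjusted p = 0.00117), and the value was -0.78 over 38 libraries (adjusted p = 0.0130). At Dose II the difference from HFD was 0.19 (SE 0.19, adjusted p = 0.638).

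The citrate carrier Slc25a1 had group means of 473 CPM in the Chow diet group, 393 in the HFD group, 341 in the HFD + MI_D1 group and 344 in the HFD + MI_D2 group. Its values were 346 to 554 (median 486) in the controls, 262 to 551 (median 382) in the HFD group, 266 to 436 (median 333) at Dose I and 205 to 521 (median 333) at Dose II, so the groups overlapped. It did not pass between HFD and Chow diet (log2 fold change -0.27, SE 0.15, adjusted p = 0.179), except without H111, the highest of its group (-0.33, adjusted p = 0.0837), by limma on log2(TPM + 1) (-0.31, adjusted p = 0.099) and with the trend of each library with gene length removed. Slc25a1 was lower than in the Chow diet group at Dose I (-0.47, adjusted p = 0.0161) and at Dose II (-0.46, adjusted p = 0.0125), and against HFD it did not pass at either dose (-0.20, adjusted p = 0.691 and -0.19, adjusted p = 0.498).

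The exchangers Slc25a10 and Slc25a11 moved little. Slc25a10 had group means of 364, 380, 378 and 399 CPM in the Chow diet, HFD, Dose I and Dose II groups, with a log2 fold change of 0.06 (SE 0.12) for HFD vs. Chow diet that turned to -0.01 over 38 libraries. Slc25a11 had group means of 91.7, 100.3, 101.6 and 104.3 CPM, with 0.13 (SE 0.08, adjusted p = 0.205) for HFD vs. Chow diet. At Dose II it was higher than in the Chow diet group (0.19, adjusted p = 0.0483), a call that was lost without C106, DII135 or DII137 (adjusted p up to 0.105), over 38 libraries (adjusted p = 0.132) and when the trend of each library with gene length was removed (log2 fold change 0.01). The log2 ratio of Slc25a10 to Slc25a11 did not pass in any of the 4 comparisons (adjusted p of 0.501 to 0.875 by permutation). Slc25a35, a carrier of low level, was higher at Dose I than in the Chow diet group (0.68, SE 0.25, adjusted p = 0.0348), with 1.38 to 3.002 CPM (median 1.52) against 0.496 to 1.78 (median 1.29); without C104 it did not pass (0.52, adjusted p = 0.109).

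The amino acid and glutathione carriers (7 tested) had 3 members that fell with the diet. The largest shift in CPM was that of Slc25a13, which exports aspartate from the mitochondria in exchange for glutamate and so serves the urea cycle and the malate-aspartate shuttle. It was at 566 to 694 CPM (median 627) in the Chow diet group, 371 to 624 (median 478) in the HFD group, 431 to 513 (median 481) in the HFD + MI_D1 group and 423 to 534 (median 494) in the HFD + MI_D2 group. Every one of the 8 controls was above every library of either CMA group, and HFD overlapped the controls. For HFD vs. Chow diet Slc25a13 fell by 0.40 in log2 units (SE 0.07 and adjusted p = 1.37e-04), and the log2 fold change was -0.35 over 38 libraries (adjusted p = 0.00503). Slc25a13 stayed at this lower level with CMA, at 0.01 (SE 0.07) against HFD for Dose I and 0.05 (SE 0.07) for Dose II. C105 was at 424 CPM, within the CMA groups, so that over 38 libraries the ranges overlapped.

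Slc25a44, which in mouse brown fat carries branched-chain amino acids into mitochondria, was at 37.4 to 81.0 CPM (median 73.9) in the Chow diet group and 25 to 103.6 (median 41.7) in the HFD group. H111 was the highest of all libraries, and C106 was the lowest of the 8 controls. Its log2 fold change for HFD vs. Chow diet was -0.48 (SE 0.21, adjusted p = 0.0777), and it passed neither over 38 libraries (-0.36, adjusted p = 0.326; C105 was at 18.2 CPM) nor without any of 12 of the 18 libraries, C101 to C104, C109, H110 and H113 to H118 (adjusted p up to 0.157). At Dose I (25.4 to 63.5 CPM, median 39.8) and Dose II (36.7 to 60.98, median 41.8) it was lower than in the Chow diet group (-0.70, adjusted p = 0.0111 and -0.67, adjusted p = 0.00906).

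Slc25a48, which in human cells has been tied to the import of choline and was grouped here with the amino acid carriers, was the only carrier that fell with the diet and rose with CMA. Its CPM was 41.3 to 91.3 (median 67.3) in the Chow diet group, 37.05 to 74.0 (median 49.3) in the HFD group, 34.1 to 90.6 (median 56.6) in the HFD + MI_D1 group and 57.4 to 86.8 (median 64.5) in the HFD + MI_D2 group. Of the 10 HFD libraries 8 were below the lowest Dose II library, and H111 and H119 were not. The log2 fold change was -0.39 (SE 0.16, adjusted p = 0.0605) for HFD vs. Chow diet and 0.45 (SE 0.15, adjusted p = 0.0951) for HFD + MI_D2 vs. HFD. The former was lost without C102, C103, C108, H113, H115 or H118 (adjusted p up to 0.159). The latter was lost without any of 16 of the 20 libraries, all but H110, H111, H119 and DII129 (adjusted p up to 0.184), and with limma on log2(TPM + 1) (0.37, adjusted p = 0.164), RLE scaling (adjusted p = 0.101) and no filter (adjusted p = 0.104). The comparisons share the HFD libraries, and Dose I against HFD gave 0.24 (SE 0.15, adjusted p = 0.663).

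Slc25a22, which brings glutamate into the mitochondrial matrix, rose at Dose II. It was at 285 to 461 CPM (median 346) in the Chow diet group, 253 to 475 (median 384) in the HFD group, 279 to 506 (median 386) in the HFD + MI_D1 group and 375 to 642 (median 492) in the HFD + MI_D2 group. The highest values were those of DII131 and DII135, and Dose II overlapped each other group. For HFD + MI_D2 vs. HFD its log2 fold change was 0.37 (SE 0.12, adjusted p = 0.0741), and it did not pass without any of H113 to H117, DII131, DII135, DII136 or DII138 (0.30 to 0.37, adjusted p up to 0.166), nor by limma on log2(TPM + 1) (0.29, adjusted p = 0.144). Against the Chow diet group it was 0.50 (SE 0.12, adjusted p = 0.00131), which passed without each library and over 38 libraries (adjusted p = 0.00390). For HFD vs. Chow diet it was 0.14 (SE 0.12, adjusted p = 0.431).

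Slc25a38, a carrier of glycine for the first step of heme synthesis, was at 2.60 to 8.87 CPM (median 4.40) in the controls, 4.08 to 6.39 (median 5.25) in the HFD group, 4.47 to 9.49 (median 6.005) at Dose I and 5.26 to 8.30 (median 6.90) at Dose II. Of the controls, 7 were at or below 4.80 and C107 was at 8.87. It did not pass for HFD vs. Chow diet (0.22, SE 0.16, adjusted p = 0.326) but did without C107 (0.39, adjusted p = 0.0462). It was higher than in the Chow diet group at Dose II (0.57, SE 0.16, adjusted p = 0.00390) and at Dose I (0.41, SE 0.16, adjusted p = 0.0508), the latter lost without C101, C109 or DI127 (adjusted p of 0.104 to 0.145) and over 38 libraries (adjusted p = 0.218). The ornithine carrier Slc25a15, needed for the urea cycle, and Slc25a40, tied in mammalian cells to mitochondrial glutathione import, did not pass in edgeR over the 37 libraries. For HFD + MI_D2 vs. Chow diet Slc25a15 was at 0.23 (SE 0.12, adjusted p = 0.132), and it passed with only the groups compared (adjusted p = 0.0748), with the length trend removed (adjusted p = 0.0604) and without C107, DII132 or DII134 (adjusted p of 0.0469 to 0.0837). Slc25a15 had group means of 282, 272, 322 and 330 CPM, with 0.28 (SE 0.11, adjusted p = 0.168) for HFD + MI_D2 vs. HFD, and Slc25a40 had 60.6, 56.3, 59.3 and 59.6 CPM.

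**Figure D3:**
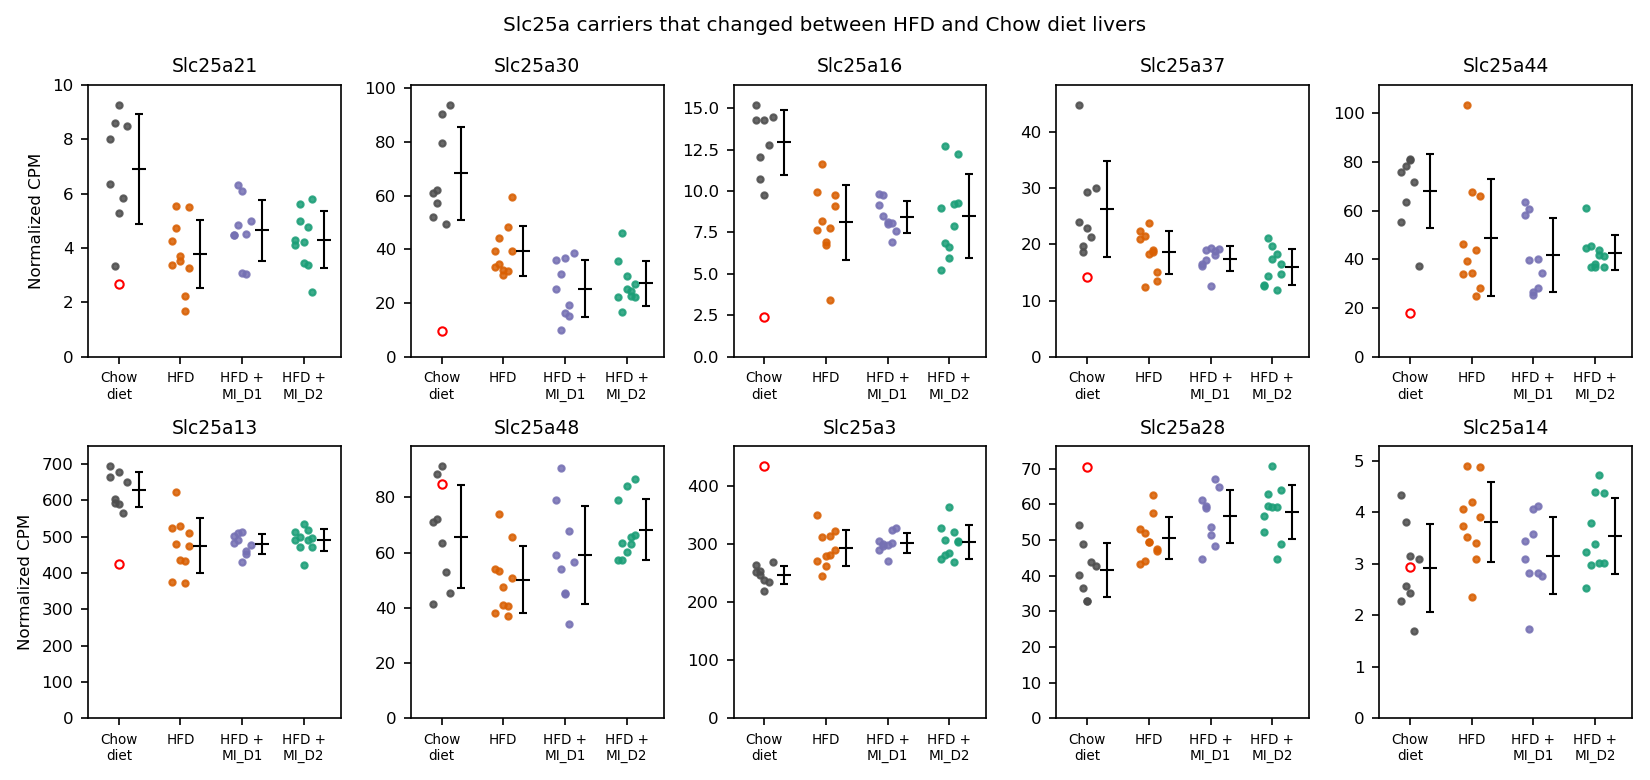
Normalized CPM by library of the 10 Slc25a carriers that passed for HFD vs Chow diet, ordered by log2 fold change, in 4 groups; points are libraries, the black bar beside them is the mean with SD over 37 libraries, and the red open circle is C105. Slc25a13 and Slc25a30 of the 8 controls lie above all CMA libraries, while C105 lies outside the range of the other controls for 8 of the 10 carriers, all but Slc25a48 and Slc25a14.

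Of the cofactor and nucleotide carriers (7 tested), Slc25a16 fell with the diet. Slc25a16 is linked to the supply of coenzyme A, from work in yeast and human. It was at 9.77 to 15.2 CPM (median 13.5) in the Chow diet group, 3.40 to 11.65 (median 7.99) in the HFD group, 6.95 to 9.79 (median 8.13) at Dose I and 5.22 to 12.7 (median 8.44) at Dose II. In each of the 3 HFD-fed groups 2 libraries were above the lowest control. Slc25a16 had a log2 fold change for HFD vs. Chow diet of -0.67 (SE 0.16, adjusted p = 0.00171), and it was -0.55 over 38 libraries (adjusted p = 0.0631), with C105 at 2.40 CPM. With CMA it stayed within 0.07 of HFD (SE 0.16 at Dose I and 0.15 at Dose II).

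Slc25a42, which exchanges coenzyme A for adenine nucleotides, had higher medians in the treated groups. Its values were 123.7 to 207 CPM (median 159) in the Chow diet group, 149 to 230 (median 175) in the HFD group, 126.4 to 262 (median 198) at Dose I and 158 to 279 (median 217) at Dose II. It did not pass for HFD vs. Chow diet (0.19, SE 0.13, adjusted p = 0.275) nor for Dose II vs. HFD (0.29, SE 0.12, adjusted p = 0.173). It was higher than in the Chow diet group at Dose I (0.36, adjusted p = 0.0308) and at Dose II (0.47, adjusted p = 0.00270), and over 38 libraries as well (adjusted p = 0.0311 and 0.00271). On log2(TPM + 1) with limma the Dose I value was 0.25 (adjusted p = 0.156).

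Carriers of cofactors that the components of CMA feed did not pass in edgeR over the 37 libraries, but Slc25a51 and Slc25a26 passed against Chow diet in some alternatives. Slc25a51 imports NAD into mitochondria, and nicotinamide riboside is an NAD precursor. Its group means were 82.5, 72.8, 93.2 and 82.8 CPM in the Chow diet, HFD, Dose I and Dose II groups, with 0.36 (SE 0.13, adjusted p = 0.395) for HFD + MI_D1 vs. HFD and 0.19 (SE 0.13, adjusted p = 0.473) for HFD + MI_D2 vs. HFD. For HFD + MI_D1 vs. Chow diet Slc25a51 passed in edgeR with the length trend removed (0.31, adjusted p = 0.0883) and without C101 (0.31, adjusted p = 0.0795). Slc25a26 imports S-adenosylmethionine, which betaine helps to regenerate through methionine. It lay at 14.2, 15.8, 15.8 and 16.3 CPM and did not pass, nor did the folate carrier Slc25a32 at 38.6, 39.2, 34.9 and 38.8 CPM. For HFD + MI_D2 vs. Chow diet Slc25a26 passed in edgeR with only these groups compared (0.20, adjusted p = 0.0710) and without C104 (0.24, adjusted p = 0.0963). The pyrimidine nucleotide carrier Slc25a33 and the peroxisomal carrier Slc25a17 did not pass either. Without C107, Slc25a33 was higher than in Chow diet at Dose I (0.42, adjusted p = 0.0194) and Dose II (0.45, adjusted p = 0.00975). It also passed without DI120 or DI121 at Dose I, and without C106, DII132 or DII134 at Dose II. With the length trend removed, Slc25a17 was lower than in Chow diet at Dose I (-0.31, adjusted p = 0.0181) and Dose II (-0.25, adjusted p = 0.0420).

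**Figure D4:**
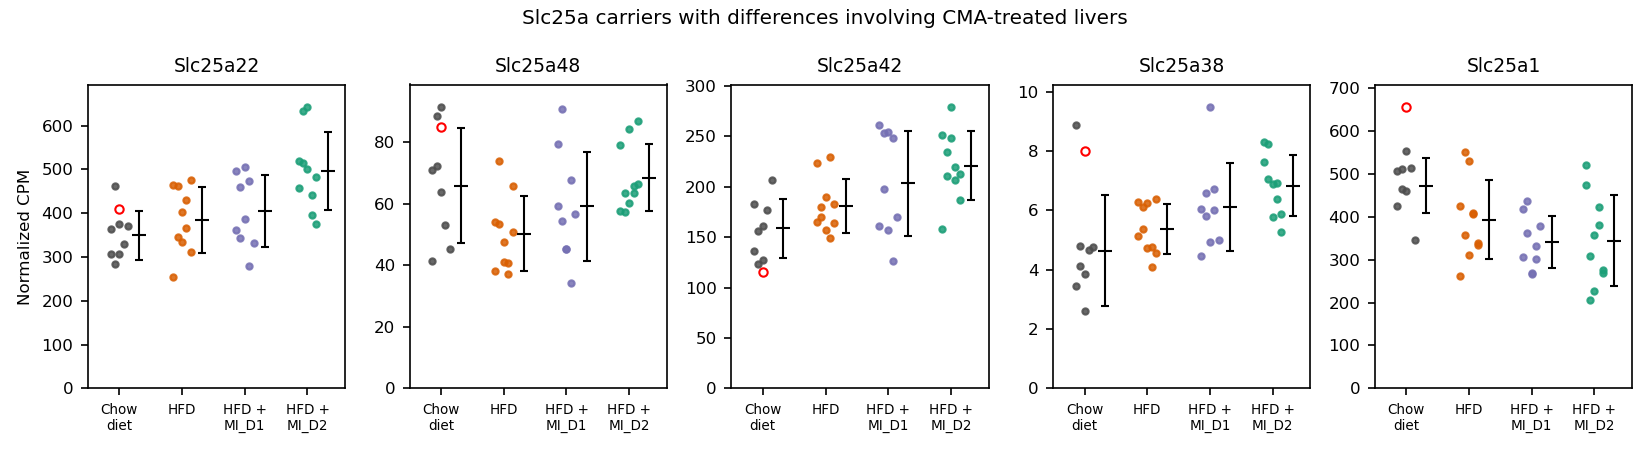
Normalized CPM by library of Slc25a22, Slc25a48, Slc25a42, Slc25a38 and Slc25a1 in 4 groups; points are libraries, the black bar is the mean with SD over 37 libraries, and the red open circle is C105. Slc25a22 and Slc25a48 have their higher medians at Dose II against HFD (492 against 384 and 64.5 against 49.3), and Slc25a1 has its highest median in the Chow diet group.

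The mitoferrins moved in opposite directions with the diet. Slc25a37 (mitoferrin-1) and Slc25a28 (mitoferrin-2) bring iron into mitochondria for heme and iron-sulfur clusters, the former known mainly from erythroid cells and the latter from most tissues. Slc25a37 was at 18.7 to 44.9 CPM (median 23.5) in the Chow diet group, 12.4 to 23.8 (median 18.9) in the HFD group, 12.5 to 19.4 (median 18.2) at Dose I and 11.9 to 21.2 (median 15.6) at Dose II. Slc25a28 was at 32.8 to 54.2 CPM (median 41.4), 43.2 to 62.5 (median 49.4), 44.7 to 66.99 (median 58.9) and 44.7 to 70.7 (median 59.1) in the same order. The medians of Slc25a37 were lower and those of Slc25a28 higher in each further group, with overlapping ranges.

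For HFD vs. Chow diet the log2 fold change was -0.49 (SE 0.14, adjusted p = 0.00847) for Slc25a37 and 0.29 (SE 0.10, adjusted p = 0.0249) for Slc25a28. Over 38 libraries Slc25a37 passed (-0.42, adjusted p = 0.0603) and Slc25a28 did not (0.18, adjusted p = 0.316). Neither passed against HFD at Dose II (-0.22, adjusted p = 0.391 and 0.19, adjusted p = 0.241). At Dose II against the Chow diet group they were at -0.71 (adjusted p = 1.19e-04) and 0.48 (adjusted p = 1.60e-04).

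The ratio of the pair shows their shift within each library. The log2 ratio of Slc25a37 to Slc25a28 on the TPM scale (0.1 TPM added to each) was -1.996 ± 0.47 (SD, n = 8) in the Chow diet group, -2.84 ± 0.33 (n = 10) in the HFD group, -3.10 ± 0.25 (n = 9) at Dose I and -3.25 ± 0.27 (n = 10) at Dose II. The HFD mean differed from the Chow diet mean by -0.84 (two-sided exact permutation test, p = 9.60e-04, adjusted over 8 ratio comparisons 0.00768) and the Dose II mean from the HFD mean by -0.41 (two-sided permutation test, 100000 resamples, p = 0.00564, adjusted 0.0226). Dose I did not differ from HFD by the test (-0.26, adjusted p = 0.191), nor Dose II from Dose I (-0.15, adjusted p = 0.437), both by exact permutation. C105 was at -3.72, below the other controls and all treated libraries, and with it the diet difference was -0.65 (adjusted exact permutation p = 0.0856). Of the erythroid markers 1 of 5 was tested and did not pass, and their summed level was 2.27 to 6.71 CPM in the Chow diet group, 1.92 to 6.40 in the HFD group, 2.82 to 5.81 at Dose I and 1.94 to 6.92 at Dose II, with C105 at 13.4; none of the 5 was at 0 in all libraries. Their part in the ratio was not tested.

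**Figure D5:**
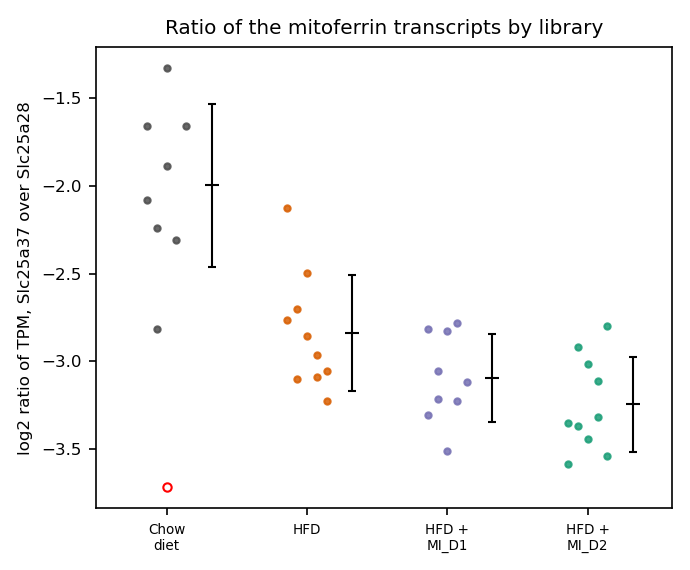
log2 ratio of Slc25a37 TPM to Slc25a28 TPM (y axis) in the 4 groups; each point is a library, the black bar gives mean and SD (37 libraries), and the red open circle is C105. The group means are -1.996, -2.84, -3.10 and -3.25, and C105 lies at -3.72.

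The uncoupling-type carriers (2 tested) changed in both directions. Slc25a30, first named kidney mitochondrial carrier, had the largest log2 fold changes of the 30 carriers between the CMA groups and Chow diet. It was at 49.4 to 93.9 CPM (median 61.6) in the Chow diet group, 30.5 to 59.6 (median 36.9) in the HFD group, 9.96 to 38.8 (median 25.4) in the HFD + MI_D1 group and 16.7 to 46.2 (median 24.9) in the HFD + MI_D2 group. Every one of the 8 controls was above every CMA library, while HFD overlapped both the controls and the CMA groups. Slc25a30 was at -0.79 on the log2 scale (SE 0.19, adjusted p = 0.00244) for HFD vs. Chow diet, -1.42 (SE 0.20, adjusted p = 2.83e-06) for HFD + MI_D1 vs. Chow diet and -1.32 (SE 0.20, adjusted p = 1.92e-06) for HFD + MI_D2 vs. Chow diet. Against HFD it was -0.63 (SE 0.19, adjusted p = 0.221) at Dose I and -0.52 (SE 0.19, adjusted p = 0.117) at Dose II, and neither passed in edgeR, whereas DESeq2 called it lower at both doses (adjusted p = 0.0909 and 0.086) and limma at Dose II only (adjusted p = 0.0828).

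C105 had 9.62 CPM of Slc25a30, below every other library. With it, the HFD vs. Chow diet value was -0.65 (adjusted p = 0.0699), the groups overlapped in each comparison, and the CMA groups were still lower than the Chow diet group (adjusted p = 6.00e-04 and 4.97e-04). Over the 37 libraries, 3 carriers (Slc25a30, Slc25a13 and Slc25a3) had no overlap in normalized CPM between the Chow diet group and Dose I, and the same 3 had none between it and Dose II; 3.68% and 4.95% of all tested genes had none. In TPM, Slc25a30 and Slc25a13 were also without overlap at both doses, and Slc25a3 was not. No carrier was without overlap for HFD vs. Chow diet (1.8% of all genes), for Dose I vs. HFD (0.011%), for Dose II vs. HFD (0.121%) or between the doses (0%). Slc25a14, a relative of Slc25a30 at a low level, rose by 0.39 in log2 units (SE 0.18, adjusted p = 0.0945) for HFD vs. Chow diet, from 1.69 to 4.33 CPM (median 2.83) to 2.36 to 4.90 (median 3.82). It passed neither over 38 libraries (adjusted p = 0.145) nor without any of 11 of the 18 libraries, C102, C103, C104, C106, C107, H110, H114 to H117 or H119 (adjusted p up to 0.232).

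Of the adenine nucleotide and phosphate carriers (4 tested), the phosphate carrier Slc25a3 rose with the diet. It was at 220 to 269 CPM (median 249) in the Chow diet group, 246 to 349 (median 286) in the HFD group, 271 to 328 (median 300.1) at Dose I and 269 to 363 (median 304) at Dose II. H111 and H112 lay among the controls, whereas the CMA libraries lay above the highest of the 8 controls in normalized CPM, at Dose II only just (DII132 at 268.789 and C106 at 268.778 CPM). In TPM the controls (257.7 to 304.8) overlapped with Dose I (from 302.5) and Dose II (from 276.2). For HFD vs. Chow diet Slc25a3 rose by 0.25 in log2 units (SE 0.06, adjusted p = 0.00465), and against HFD it was at 0.04 (SE 0.06) with Dose I and 0.05 (SE 0.06) with Dose II, neither past the threshold. C105 was at 434 CPM, above all other libraries, and with it the diet difference was 0.13 (adjusted p = 0.380) and the CMA groups did not pass against Chow diet (adjusted p = 0.206 and 0.131). The ADP/ATP carrier Slc25a4 was low (4.201 to 5.01 CPM as group means) and did not pass, nor did the ATP-Mg/phosphate carriers Slc25a24 and Slc25a25. Another ADP/ATP carrier, Slc25a5, was not in the tables, so the summed level of the ADP/ATP carriers in these livers is not known. Slc25a25 had a median of 66.5 CPM at Dose I and 96.8 in the HFD group (log2 fold change -0.57, SE 0.23, adjusted p = 0.424).

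Slc25a47, the most abundant of the 37 carriers, varied widely within each group. It was at 872 to 1738 CPM (median 1340) in the Chow diet group, 876 to 2061 (median 1599) in the HFD group, 724 to 2135 (median 1271) in the HFD + MI_D1 group and 1336 to 2637 (median 1670) in the HFD + MI_D2 group. C105 was above all of them, at 2881 CPM. It passed only for HFD + MI_D2 vs. Chow diet (0.43, SE 0.18, adjusted p = 0.0594), a call lost without C101, C103, C104, DII131 or DII134 (adjusted p of 0.112 to 0.136), over 38 libraries (adjusted p = 0.374) and without the trend with gene length (adjusted p = 0.122). Slc25a46, an outer membrane protein of mitochondrial dynamics, was among the steadiest within groups, at 58.4, 58.2, 53.9 and 55.4 CPM with a coefficient of variation of 5.63% to 9.52%. By limma on log2(TPM + 1) it was lower than in the Chow diet group at Dose I (-0.18, adjusted p = 0.0336) and Dose II (-0.16, adjusted p = 0.0538). In edgeR it passed only at Dose I without DI128 (-0.14, adjusted p = 0.0886).

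Genes that make or accompany these carriers were counted from lists. Of the 9 tested genes listed here for the TIM22 import route, 7 rose and 1 fell with the diet (median log2 fold change 0.34), against 18.1% of all genes in each direction. Timm13, a chaperone of the intermembrane space, rose by 0.67 (SE 0.15, adjusted p = 0.00139). Romo1, whose part in this route was not checked, rose by 0.81 (SE 0.18, adjusted p = 0.00118). Tomm70a, a receptor for carrier precursors, fell by 0.20 on the log2 scale (adjusted p = 0.0608). The summed level of the list was 281 ± 19.6 CPM in the Chow diet group, 331 ± 19.5 in the HFD group, 349 ± 28.0 at Dose I and 378 ± 46.4 at Dose II (SD), and C105 was at 516. Over 38 libraries 0 of the 9 passed for HFD vs. Chow diet, with 3 at an unadjusted p under 0.05. Long transcripts of widely expressed genes fell in the diet comparison, as given below. Values of the import list with the trend of each library with gene length removed are not given here. At Dose II against HFD, Timm13 (0.54, adjusted p = 0.0256) and Romo1 (0.54, adjusted p = 0.0607) were higher.

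The porin Vdac2 rose by 0.27 (SE 0.07, adjusted p = 0.00269) with the diet. Of 9 other inner membrane carriers 1 rose and 6 fell, against 18.1% of all genes in each direction; apart from Abcb10 (-0.53, adjusted p = 0.00228) those that fell had an adjusted p of 0.0504 to 0.0623, and over 38 libraries 0 rose and 2 fell. Among them the subunits of the pyruvate carrier went apart: Mpc2 was at 0.25 (adjusted p = 0.00747) and Mpc1 at -0.15 (adjusted p = 0.0623), with Mpc1 higher at Dose II than in HFD (0.23, SE 0.06, adjusted p = 0.0158). Of the family members under other symbols, Ucp2 rose by 0.53 (SE 0.22, adjusted p = 0.0641) with the diet and 1 other was tested and did not pass.

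Other measures moved with the same comparisons. Over all tested genes 18.1% passed in each direction for HFD vs. Chow diet, and 3.37% higher and 2.25% lower for HFD + MI_D2 vs. HFD. Of 14 long transcripts of widely expressed genes, 9 fell and 0 rose in the former (median log2 fold change -0.27) and 3 fell in the latter, and their summed CPM was 882.5 to 1085, 767 to 906, 721 to 875 and 685 to 867 in the Chow diet, HFD, Dose I and Dose II groups, with C105 at 602. With the trend of each library with gene length removed, Slc25a14 (adjusted p = 0.247) and Slc25a48 (adjusted p = 0.105) did not pass for HFD vs. Chow diet, while Slc25a1 (-0.38, adjusted p = 0.0568) and Slc25a17 (-0.29, adjusted p = 0.0271) did, and Slc25a30 was lower at Dose II than in HFD (-0.58, adjusted p = 0.0929). The 10 Kupffer cell and macrophage markers summed to 196 to 270 CPM in the Chow diet group, 287 to 465 in HFD, 213 to 409 at Dose I and 198 to 380 at Dose II; 6 rose with the diet, 5 fell at Dose II against HFD, and none was at 0 in all libraries. C105 was at 525.7 CPM, above every HFD library, and over 38 libraries 2 rose with the diet. The 10 hepatocyte markers summed to 204700 to 247000, 131600 to 195600, 140500 to 196300 and 123900 to 198200 CPM, with 1 higher and 5 lower for HFD vs. Chow diet, and C105 was at 284000. For HFD + MI_D2 vs. HFD, 3 of them were higher, Cps1 (0.45, adjusted p = 0.0338), Ass1 (0.48, adjusted p = 0.0344) and Tdo2 (0.58, adjusted p = 0.0817). The others did not pass there: Alb (-0.05), Apob (-0.18), Serpina1 (-0.002) and Ttr (-0.02) were below 0. Apoa1 (0.06), Hnf4a (0.08) and Tat (0.20) were above it. The mean of the summed list was 166500 CPM in the HFD group and 163600 at Dose II. Of 8 liver endothelial markers 2 were lower there, Cdh5 (-0.39, adjusted p = 0.0520) and Lyve1 (-0.49, adjusted p = 0.0981). The part of these in the carriers' differences was not tested.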

How the data were processed

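Per the study's methods, RNA of TriPure-extracted liver was sequenced on a NovaSeq and quantified by the authors with kallisto against MesAur1.0 of the hamster. The deposited tables hold estimated counts per gene symbol, not normalized, and TPM, which the authors' pipeline divided by transcript length and library total. All columns were matched to labelled samples. Estimated counts were rounded to whole numbers, filtered with filterByExpr, and scaled by TMM. The test was edgeR's quasi-likelihood F (version 4.0.16 under R 4.3.3) with a coefficient for each group, Benjamini-Hochberg adjustment over all 9099 tested genes and 0.1, the study's threshold, as the limit. SEs were derived from F and the log2 fold change, and normalized CPM uses the TMM library sizes. The script was tested on simulated data.

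The control that the study left out was identified as C105, because DESeq2 fold changes computed without it matched the study's list for 100% of 1969 genes (within 0.001), and for at most 0.508% otherwise. Ratios were compared for 2 of 8 considered pairs, those with both carriers in the tables and a sufficient level. Alternatives were RLE scaling, DESeq2 1.42.0, limma 3.58.1 on log2(TPM + 1) and log2(TPM + 0.1), other filters, 38 libraries, only the groups compared, removal of the length trend, an adjusted p under 0.05 and each library left out. Comparisons of the CMA groups with Chow diet, and ratios with a library left out, were added after seeing the data.

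The members and gene lists were chosen with earlier results of these data known. Carriers were named with test values if they passed in a comparison, were among the 5 highest in TPM or belonged to a pair; the other carriers named were chosen after their values were seen. The labels name no animals, so p-values measure the spread between libraries. kallisto splits reads among highly similar or overlapping genes, so such values are uncertain, and its strand setting is not given in the sources used here. Family members under symbols not in the tables were not analysed here.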

Additional observations from a re-analysis of the deposited data

Results flagged for a closer look

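Among 18 carriers in 4 groups (72 combinations), 5 held a library far from the rest of its group, as judged by the gap to its nearest neighbour over the range of the group. For normally spread values chance gives such a gap in about 1 of 20 groups, so 5 of 72 is near that rate. In C107, Slc25a37 was at 44.9 CPM (next 29.98, median of the others 23.0) and Slc25a38 at 8.87 CPM (next 4.80, median of the others 4.14). In DI127, Slc25a37 was the lowest of its group at 12.5 CPM (next 16.2, median of the others 18.5), and Slc25a38 was the highest at 9.485 CPM (next 6.73, median of the others 5.91). In DII134, Slc25a44 was at 60.98 CPM (next 45.6, median of the others 41.6). The summed erythroid markers were at 4.56 CPM in C107 and 4.57 CPM in DI127, within the ranges of their groups, and their part was not tested. Without C107 the Slc25a37 difference between HFD and Chow diet was the smallest of those with a library left out, at -0.35 (adjusted p = 0.0409), and Slc25a38 passed (0.39, adjusted p = 0.0462).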

How the results depend on the processing

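Over 38 libraries 0 carriers were higher for HFD vs. Chow diet, 0 for HFD + MI_D2 vs. HFD, 3 for HFD + MI_D1 vs. Chow diet and 4 for HFD + MI_D2 vs. Chow diet. For HFD + MI_D2 vs. HFD, 1 carrier was higher with RLE scaling and with no filter on low counts, and 0 with limma on log2(TPM + 1), on log2(TPM + 0.1) and at an adjusted p under 0.05. In the same comparison 1 carrier was lower with DESeq2, with only the 2 groups compared, with the length trend removed and with limma on either scale. For HFD + MI_D1 vs. HFD, DESeq2 called 1 carrier lower. The value of Slc25a10, HFD vs Chow diet, turned from 0.06 to -0.0103 over 38 libraries to -0.0235 with limma on log2(TPM + 1) and to -0.0236 on log2(TPM + 0.1), all far from the threshold. With each library left out, HFD vs. Chow diet had 2 to 4 carriers higher and 5 to 8 lower, HFD + MI_D2 vs. HFD 0 to 2 higher and 0 to 1 lower (1 without DII130 or DII134), HFD + MI_D1 vs. Chow diet 4 to 6 higher and 7 to 8 lower, HFD + MI_D2 vs. Chow diet 6 to 9 higher and 7 lower, and any difference 12 to 15. The mitoferrin ratio passed 0.1 with each library left out, at -0.96 to -0.75 for HFD vs. Chow diet and -0.46 to -0.33 for HFD + MI_D2 vs. HFD. Over 38 libraries it passed in both (adjusted permutation p = 0.0856 and 0.0451), the former not under 0.05. The part of the length trend in the ratio was not tested. With that trend removed, Slc25a37 and Slc25a28 singly were at -0.41 and 0.25 for HFD vs. Chow diet. For HFD + MI_D2 vs. HFD they were at -0.19 and 0.17, neither past the threshold. Of single carrier values with a library left out, 751 kept their side of the threshold, 66 lost it and 3 gained it. The cause of these changes was not tested. No paired analysis was possible because the replicate numbers in the labels run on over the groups, and no number is shared. Totals of 4075609 to 10384523 estimated counts per library leave carriers near 1 CPM with few counts, and for Slc25a24 the SE for HFD vs. Chow diet was 0.33.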
